A study of Mus musculus with 12 samples.

Results

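Transcripts of 9 genes of the ATF4 arm of the integrated stress response, of 28030 genes listed in the deposited table, were followed in mouse hepatocytes. The members were chosen by name (Atf4, Ddit3, Atf3, Trib3, Chac1, Sesn2, Asns, Psat1 and Phgdh), their Ensembl identifiers were matched to symbols, and all 9 passed the filter on low counts. The 12 RNA-seq libraries fall into 4 groups of 3: pericentral (PC) hepatocytes of mice fasted for 24 h, PC hepatocytes of fed mice, periportal (PP) hepatocytes of mice fasted for 24 h, and PP hepatocytes of fed mice. PC hepatocytes surround the central vein of a liver lobule and PP hepatocytes the portal tract. The zones were separated with digitonin, per the labels, a detergent that can kill the cells of the opposite zone before isolation. All mice were 12-week-old WT females on normal chow. For 3 days all went through a training schedule of 16 h without food overnight and 8 h with food by day, and then had food together with water holding 20% sucrose. Fed mice were killed after 4 h of this feeding. Fasted mice lost both food and sucrose and were killed 24 h later, at the same clock time. The comparison therefore sets fasting against refeeding with sucrose. The labels call the libraries biological replicates without saying that each came from its own mouse, so the p-values below reflect only how much these libraries spread.

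In the integrated stress response, kinases that sense amino acid shortage, misfolded protein in the endoplasmic reticulum (ER), double-stranded RNA or heme deficiency phosphorylate the translation factor eIF2α. General protein synthesis then slows, while translation of the Atf4 transcript increases through upstream reading frames, so the level of Atf4 RNA is not a measure of ATF4 protein. ATF4 pairs with other basic leucine zipper (bZIP) proteins and activates genes for amino acid synthesis and uptake, tRNA charging, redox balance and feedback on the pathway. In liver the pathway is known for its response to amino acid deprivation and ER stress.

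The best known DNA target of ATF4 with its C/EBP partners has the core TGATGNAA. It was searched on both strands in the RefSeq promoter windows (GRCm38.p6, 250 bases before to 50 after the annotated start, 300 bases each), and 10 windows matched the 9 members. Of the members, 4 held the core, against 3.97% of all 32851 windows, which is a description of these letters and not of binding. Trib3 (chr2:152344011-152344310, minus strand) held TGATGTAA on the lower strand of the printed sequence at positions 15 to 22 after the start. Chac1 (chr2:119350992-119351291, plus strand) held TGATGCAA on the lower strand, at -193 to -186. Asns (chr6:7693160-7693459, minus strand) held TGATGAAA on the printed strand at -23 to -16, and Atf3 (chr1:191183284-191183583, minus strand) held TGATGCAA on the lower strand at -110 to -103. Of these genes, Trib3 and Chac1 rose on fasting while Asns and Atf3 were not called, so all 4 windows are shown, each in the direction of its gene with the core in capitals.
Trib3: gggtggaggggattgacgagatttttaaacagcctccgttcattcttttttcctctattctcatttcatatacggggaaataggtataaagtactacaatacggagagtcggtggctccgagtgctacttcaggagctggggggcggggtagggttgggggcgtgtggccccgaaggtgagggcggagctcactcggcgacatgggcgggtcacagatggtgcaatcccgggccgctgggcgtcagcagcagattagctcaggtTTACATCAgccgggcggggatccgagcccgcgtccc
Chac1: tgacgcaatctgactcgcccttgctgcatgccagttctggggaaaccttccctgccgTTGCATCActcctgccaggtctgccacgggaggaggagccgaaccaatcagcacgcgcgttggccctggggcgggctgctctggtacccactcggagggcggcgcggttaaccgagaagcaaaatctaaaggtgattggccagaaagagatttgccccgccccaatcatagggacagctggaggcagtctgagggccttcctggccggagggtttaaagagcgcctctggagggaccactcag
Asns: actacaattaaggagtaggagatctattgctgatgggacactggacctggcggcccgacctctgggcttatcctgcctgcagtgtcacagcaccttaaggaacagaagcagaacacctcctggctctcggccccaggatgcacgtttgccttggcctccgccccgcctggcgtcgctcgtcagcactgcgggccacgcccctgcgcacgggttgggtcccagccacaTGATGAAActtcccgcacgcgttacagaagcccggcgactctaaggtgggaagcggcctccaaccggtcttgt
Atf3: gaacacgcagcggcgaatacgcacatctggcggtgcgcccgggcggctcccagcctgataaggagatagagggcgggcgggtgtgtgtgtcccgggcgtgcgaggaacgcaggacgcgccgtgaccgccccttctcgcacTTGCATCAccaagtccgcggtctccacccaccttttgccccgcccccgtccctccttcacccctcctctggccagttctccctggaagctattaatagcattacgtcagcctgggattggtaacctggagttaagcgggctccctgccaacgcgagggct
The windows of Atf4, Ddit3, Psat1, Phgdh and Sesn2 did not hold these letters. The cyclic AMP response element TGACGTCA (1.79% of all windows) and the ER stress response element (0.119%), searched on both strands, were in 0 of the 9. With neither element found in these windows, no match of the core overlapped one.

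Libraries held 16245846 to 27449412 estimated counts. Summed hepatocyte markers (6 genes) stood at 80395 CPM (counts scaled to a common library size) or more in every library. Summed markers of other liver cells stayed below 50 CPM: cholangiocyte markers (7 genes, 4 of them tested) ran from 13.6 to 28.1 CPM in PC and from 34.2 to 47.7 CPM in PP libraries, and endothelial markers (8 genes, 7 tested) from 5.15 to 28.2 CPM over all libraries. Macrophage, stellate and leukocyte sums reached at most 9.42, 16.3 and 6.29 CPM. Replicate 1 of fasted PC stood apart within its group: Glul, the pericentral glutamine synthetase, was at 172 CPM there, against 3639 and 2353 CPM in replicates 2 and 3, and Hal, a periportal histidine ammonia-lyase, at 579 CPM against 69.9 and 109 CPM. In PP libraries Glul ran from 49.3 to 173 CPM. Hal ran from 609 to 621 CPM in fed PP and from 1121 to 1429 CPM in fasted PP libraries. Over the whole lists, the 8 pericentral markers summed to 13609 CPM in it and to 24193 and 21312 CPM in replicates 2 and 3, against 372 to 1158 CPM in fasted PP libraries. The 8 periportal markers summed to 9191 CPM in it and to 7636 and 8108 CPM in replicates 2 and 3, against 14926 to 20953 CPM in fasted PP libraries. These sums weigh abundant genes most: over all libraries Cyp2e1 reached 15402 CPM, Pck1 10349 CPM and Ass1 6475 CPM. They do not show how the less abundant markers stood in this library. Called member changes within PC are given with and without fasted PC replicate 1.

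CPM divided by the merged exon length in kilobases (RPKM) allows levels to be compared between genes. Averaged over the 12 libraries, Atf4 led with 42.8 RPKM. Ddit3 followed with 4.09, Sesn2 with 2.99, Trib3 with 2.89, Atf3 with 2.06, Chac1 with 1.95, Phgdh with 1.37, Psat1 with 0.881 and Asns with 0.451 RPKM. Atf4 stood above every other member in every library. Below it, the ranges of neighbours in this order overlapped. Across libraries the CPM of Atf4 varied least, by 1.46 times from lowest to highest, and that of Chac1 most, by 19.1 times. Asns (12 to 45 counts a library) and Chac1 (12 to 189) have few counts, which limits precision. The errors did not follow the counts alone. The standard error (SE) of the log2 fold change on fasting, averaged over the zones, was 0.26 for Asns. It was 0.31 for Trib3, 0.38 for Atf3 and 0.42 for Chac1.

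Fasting was associated with more Trib3, Chac1 and Sesn2 RNA, and with no call for the other 6 members. Averaged over the zones, edgeR's quasi-likelihood test called 3 of 9 members higher and 0 lower at an adjusted p under 0.05, against 17.8% of the 12086 tested genes called higher and 17.5% lower (35.3% in either direction). The median log2 fold change was -0.11 over the 9 members and 0.00 over all tested genes. In PC the counts were 3 higher and 0 lower (11.1% and 10.2% of all genes, or 21.4% in either direction), with a median of -0.22 against 0.00, and in PP 2 higher and 0 lower (8.39% and 9.50%, or 17.9% in either direction), with a median of 0.18 against 0.00. In bulk RNA such as this, fewer cells of a kind and less RNA per cell cannot be told apart.

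**Figure D1:**
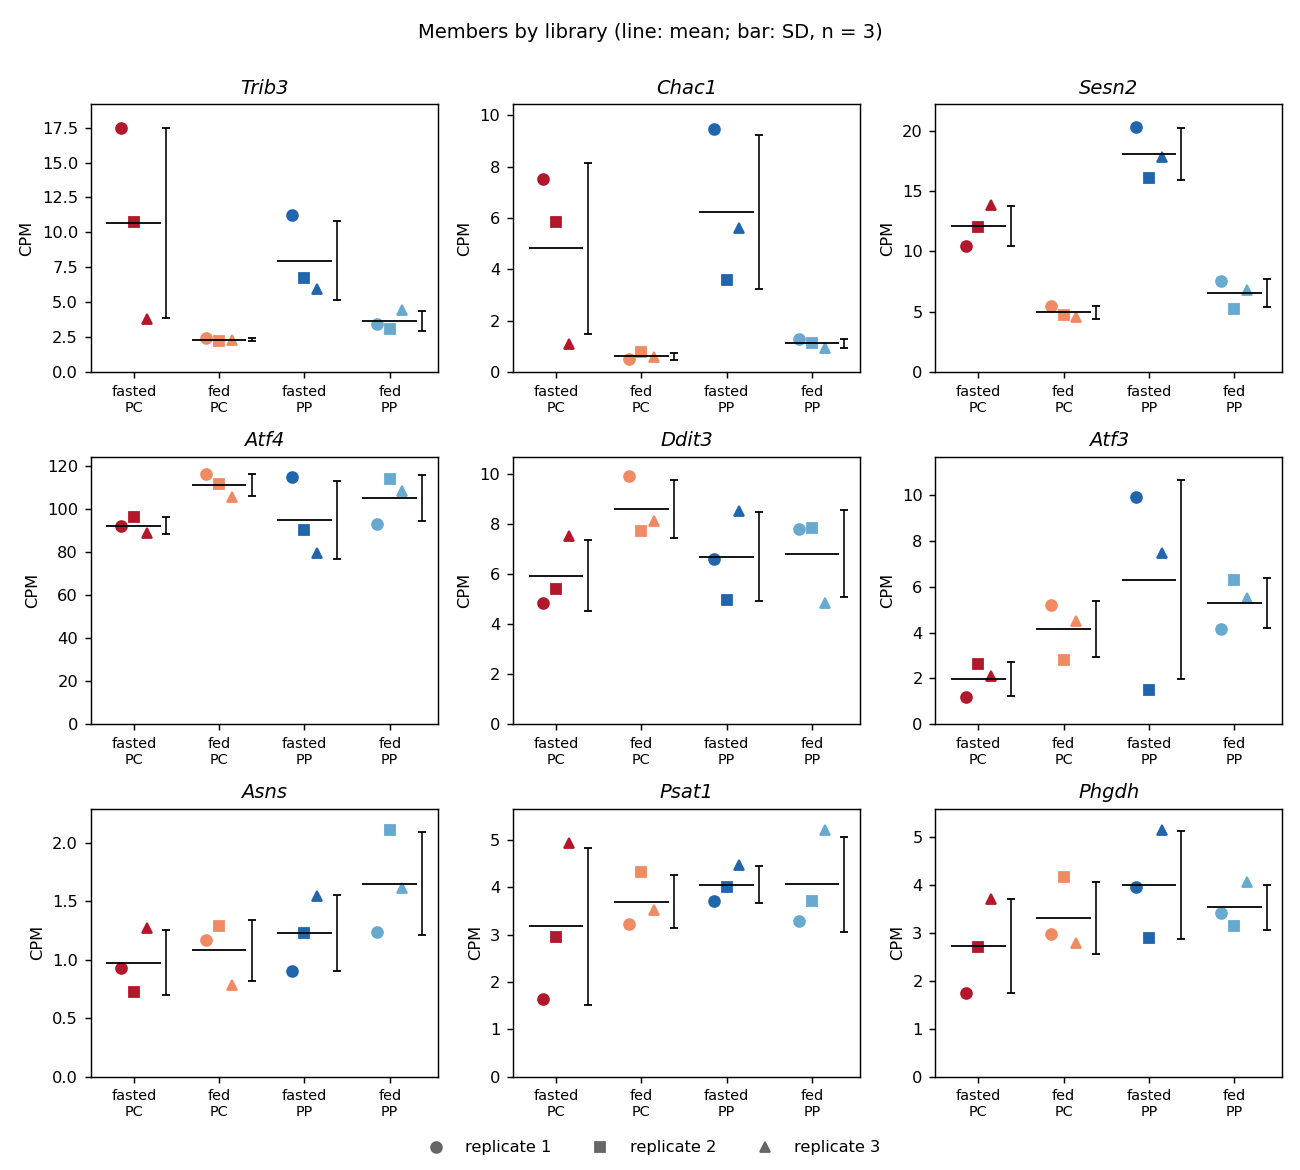
CPM (vertical axis, from 0) of each of the 9 genes in every library, by group, with marker shapes for replicate numbers; lines are group means and bars SD, n = 3. Trib3, Chac1 and Sesn2 in fasted libraries lie above the fed libraries of the same zone, while Atf4 stays between 79.6 and 116 CPM throughout.

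The feedback inhibitor Trib3 (chr2:152337422-152344032, minus strand) encodes a pseudokinase that binds ATF4 and restrains it. Fasted PC libraries had 17.5, 10.7 and 3.82 CPM, against 2.42, 2.19 and 2.30 CPM in fed PC libraries. In PP, fasted libraries had 11.2, 6.77 and 5.93 CPM, against 3.45, 3.05 and 4.47 CPM in fed PP libraries. The groups did not overlap in either zone, and the fasted PC libraries spread far more than the fed ones. In PC the log2 fold change was 2.21 ± 0.45 (SE; 95% interval 1.22 to 3.20; edgeR adjusted p = 0.00546), and 1.63 without fasted PC replicate 1 (adjusted p = 0.0133). In PP it was 1.12 ± 0.44 (0.17 to 2.08), which missed the threshold in edgeR (adjusted p = 0.1005) and passed it in DESeq2 (adjusted p = 0.0413). It also passed in a fit of the PP groups alone (edgeR adjusted p = 0.0273) and when fasted PC replicate 1 or 3 was left out (0.0423 and 0.0140). Neither of these libraries is part of the PP comparison, and without either the log2 fold change stayed at 1.12. Only these 4 of 18 alternative fits passed, and the edgeR adjusted p reached 0.283 when a library was left out. Averaged over the zones the change was 1.67 ± 0.31 (edgeR adjusted p = 0.00175).

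Chac1 (chr2:119351229-119354381, plus strand), which encodes a γ-glutamyl cyclotransferase that breaks down glutathione, changed most of the 9. Fasted PC libraries had 7.52, 5.84 and 1.11 CPM, against 0.497, 0.765 and 0.588 CPM in fed PC libraries. Fasted PP libraries had 9.48, 3.60 and 5.61 CPM, against 1.28, 1.13 and 0.936 CPM in fed PP libraries. As with Trib3, replicate 3 of fasted PC was the lowest fasted library. For both genes it lay above the fed PC libraries but within the range of the fed PP libraries. Over both zones together, fasted and fed libraries of these genes therefore overlapped. The log2 fold change was 2.95 ± 0.61 in PC (1.63 to 4.28; edgeR adjusted p = 0.00538) and 2.45 without fasted PC replicate 1 (adjusted p = 0.0166). It was 2.47 ± 0.58 in PP (1.21 to 3.73; adjusted p = 0.0126), with an adjusted p of 0.0513 without fed PP replicate 3. Limma voom did not call either zone (adjusted p = 0.0673 in PC and 0.0549 in PP). Averaged over the zones, Chac1 was 2.71 ± 0.42 higher on the log2 scale (edgeR adjusted p = 0.000448).

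Sesn2 (chr4:132492032-132510501, minus strand) encodes sestrin 2, a leucine-binding inhibitor of mTORC1 signalling that p53 also induces. Its change had the smallest error of the 3 called genes. Fasted PC libraries had 10.5, 12.0 and 13.8 CPM, against 5.51, 4.73 and 4.56 CPM in fed PC libraries. In PP, fasted libraries had 20.3, 16.1 and 17.8 CPM, against 7.55, 5.26 and 6.81 CPM in fed PP libraries. All 6 fasted libraries lay above all 6 fed libraries, as for 7.77% of all genes. No member had all fasted libraries below all fed ones, against 8.15% of all genes. The log2 fold change was 1.29 ± 0.17 in PC (0.92 to 1.66; edgeR adjusted p = 0.000349), 1.37 there without fasted PC replicate 1, and 1.46 ± 0.17 in PP (1.10 to 1.83; edgeR adjusted p = 0.000227).

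Atf4 itself (chr15:80255184-80257541, plus strand) had 92.0, 96.5 and 88.8 CPM in fasted PC libraries, against 116, 112 and 106 CPM in fed PC libraries. Fasted PP libraries had 115, 90.2 and 79.6 CPM, against 93.2, 114 and 108 CPM in fed PP libraries. The PC groups did not overlap, fasted being lower, and the PP groups did. The log2 fold change was -0.27 ± 0.13 in PC (-0.55 to 0.01; edgeR adjusted p = 0.165) and -0.15 ± 0.13 in PP (-0.43 to 0.13; adjusted p = 0.472). The fit of the PC groups alone called it lower in PC (-0.29, edgeR adjusted p = 0.0318). Averaged over the zones it was -0.21 ± 0.09 (edgeR adjusted p = 0.0947), and it passed as lower when fed PP replicate 1 (-0.25, adjusted p = 0.0481) or fasted PP replicate 1 (-0.29, adjusted p = 0.0127) was left out.

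Ddit3 (chr10:127290774-127296288, plus strand) encodes CHOP, a bZIP factor linked to cell death under lasting ER stress. Fasted PC libraries had 4.84, 5.42 and 7.54 CPM, against 9.91, 7.72 and 8.13 CPM in fed PC libraries. In PP the fasted libraries had 6.62, 4.96 and 8.53 CPM, against 7.80, 7.84 and 4.84 CPM in fed PP libraries. The groups did not overlap in PC, where fasted was lower, and did in PP. The log2 fold change was -0.53 ± 0.25 in PC (-1.07 to 0.01; edgeR adjusted p = 0.150) and -0.03 ± 0.25 in PP (-0.57 to 0.51; adjusted p = 0.954). Exons of Ddit3 overlap by 68 bp with Mars and by 13 bp with Gm4189 on the opposite strand. The sources used here give no strand settings, so how reads there were shared between the genes is not known.

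Atf3 (chr1:191170296-191218039, minus strand) encodes a bZIP repressor that many acute stresses induce. Fasted PC libraries had 1.18, 2.65 and 2.11 CPM, against 5.19, 2.82 and 4.51 CPM in fed PC libraries. Fasted PP libraries had 9.93, 1.49 and 7.48 CPM, against 4.14, 6.29 and 5.51 CPM in fed PP libraries. Replicate 2 of fasted PP was far below replicates 1 and 3 of its group. The immediate early genes Jun (45.8 CPM against 157 and 124) and Egr1 (8.22 CPM against 52.0 and 51.2) were also lower in it than in these. In fed libraries Jun ran from 45.2 to 76.3 CPM and Egr1 from 6.42 to 42.2 CPM, so replicate 2 lay within the fed ranges of both. Replicates 1 and 3 of fasted PP were the highest of the 12 libraries in Jun, Egr1 and Atf3. The endothelial marker sum of replicate 2 was 28.2 CPM, against 8.33 and 5.15 CPM in replicates 1 and 3. The part of these values in the Atf3 result was not tested. The log2 fold change of Atf3 was -1.08 ± 0.56 in PC (-2.32 to 0.16; edgeR adjusted p = 0.203), where the groups did not overlap, and 0.24 ± 0.53 in PP (-0.91 to 1.40; adjusted p = 0.800). Without fasted PP replicate 2 the PC difference was called (-1.10, edgeR adjusted p = 0.0300). That library is not part of the PC comparison, and the log2 fold change hardly moved without it.

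In PC, 3 members did not overlap as higher (Trib3, Chac1 and Sesn2) and 3 as lower (Atf4, Ddit3 and Atf3), against 21.5% and 20.2% of all tested genes. In PP, 3 did not overlap as higher and 0 as lower, against 16.8% and 17.8%.

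The biosynthetic members gave no call. Asns (chr6:7675169-7693254, minus strand), which makes asparagine from aspartate and glutamine, had 0.927, 0.722 and 1.27 CPM in fasted PC libraries, against 1.17, 1.29 and 0.784 CPM in fed PC libraries. Fasted PP libraries had 0.903, 1.23 and 1.55 CPM, against 1.24, 2.11 and 1.61 CPM in fed PP libraries. The groups overlapped in both zones, and the average log2 fold change was -0.29 ± 0.26 (-0.85 to 0.27; edgeR adjusted p = 0.407). An interval of this width does not show that Asns stayed the same, but its upper bound lies below the averaged changes of Trib3, Chac1 and Sesn2.

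Phgdh and Psat1 encode the first and the next enzyme of serine synthesis from a glycolytic intermediate. Phgdh (chr3:98313170-98339990, minus strand) had 1.75, 2.71 and 3.71 CPM in fasted PC libraries, against 2.98, 4.17 and 2.79 CPM in fed PC libraries, and 3.96, 2.90 and 5.15 CPM in fasted PP libraries, against 3.41, 3.14 and 4.06 CPM in fed PP libraries. Psat1 (chr19:15904678-15947337, minus strand) had 1.65, 2.95 and 4.93 CPM in fasted PC libraries, against 3.23, 4.31 and 3.53 CPM in fed PC libraries, and 3.71, 4.00 and 4.47 CPM in fasted PP libraries, against 3.28, 3.71 and 5.20 CPM in fed PP libraries. All these groups overlapped. The averaged log2 fold changes were -0.05 ± 0.21 for Phgdh (-0.51 to 0.40) and -0.11 ± 0.23 for Psat1 (-0.61 to 0.39). Replicate 1 of fasted PC was the lowest of the 12 libraries for both genes, and without it the averaged changes were 0.06 and 0.04.

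**Figure D2:**
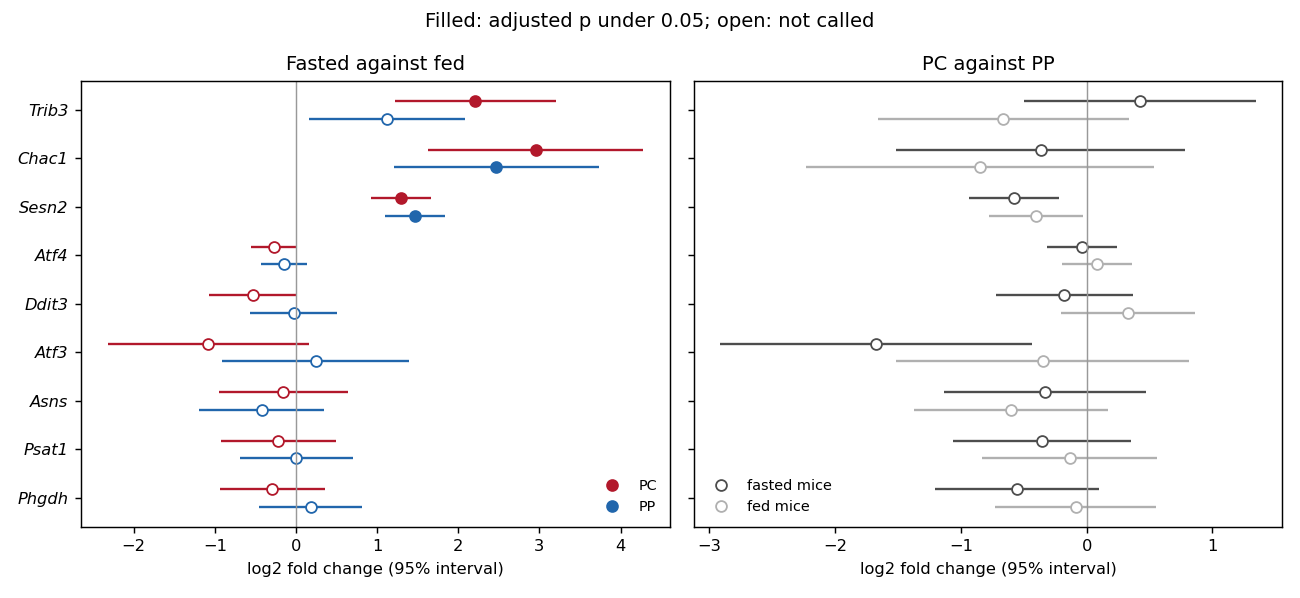
Log2 fold changes with 95% intervals (horizontal axis) of the 9 genes, fasted against fed at the left (PC above PP) and PC against PP at the right (fasted above fed); filled points have an edgeR adjusted p under 0.05. Filled points are Chac1 and Sesn2 in both zones and Trib3 in PC, and no zone difference within 1 feeding state was called.

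The next question was whether the zones differ. In fasted mice, 0 of 9 members were called between PC and PP by edgeR, against 6.40% of all tested genes in either direction (3.35% higher and 3.05% lower in PC), with 2 members at an unadjusted p under 0.05, 2 called by DESeq2 and 1 by limma voom. In fed mice 0 of 9 were called, against 4.72% of all genes (2.24% higher and 2.47% lower), with 1 at an unadjusted p under 0.05 and 0 called by DESeq2 or voom. The median log2 difference of the 9, PC minus PP, was -0.36 in fasted mice (0.00 over all genes) and -0.35 in fed mice (-0.01 over all genes). Averaged over the feeding states, 1 of 9 was called lower in PC and 0 higher, against 6.50% and 6.47% of all genes (13.0% in either direction). No member had all 6 PC libraries beyond all 6 PP libraries, as 2.63% of all genes did as higher and 2.74% as lower.

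That gene was Sesn2. It averaged 12.1 ± 1.67 CPM in fasted PC and 18.1 ± 2.13 CPM in fasted PP libraries, and 4.93 ± 0.506 CPM in fed PC and 6.54 ± 1.17 CPM in fed PP libraries (SD, n = 3 each). The fasted groups did not overlap (10.6% of all genes were lower in PC in that way) and the fed groups did. The averaged log2 difference was -0.49 ± 0.12 (-0.75 to -0.23; edgeR adjusted p = 0.0158), and -0.44 without fasted PC replicate 1 (adjusted p = 0.0286). Within fasted mice it was -0.58 ± 0.17 (edgeR adjusted p = 0.0591; DESeq2 0.0238; voom 0.0427) and -0.49 without fasted PC replicate 1 (edgeR 0.12), and within fed mice -0.41 ± 0.17 (edgeR adjusted p = 0.252).

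In fasted mice Atf3 averaged 1.98 ± 0.740 CPM in PC and 6.30 ± 4.34 CPM in PP libraries (SD, n = 3 each), and the groups overlapped through the low PP replicate. The log2 difference was -1.67 ± 0.56 (edgeR adjusted p = 0.121; DESeq2 0.0212), -1.40 without fasted PC replicate 1 (edgeR 0.233), and -2.15 without fasted PP replicate 2 (edgeR adjusted p = 0.00415). In fed mice Trib3 and Chac1 were lower in every PC library than in any PP library, as 13.1% of all genes were. Their log2 differences were -0.66 ± 0.46 for Trib3 (edgeR adjusted p = 0.544) and -0.85 ± 0.63 for Chac1 (adjusted p = 0.586).

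Whether fasting acted differently in PC and PP was tested as an interaction. Of all tested genes 0% were called by edgeR (465 at an unadjusted p under 0.05; 11 called by DESeq2 and 0 by voom), and of the 9 members 0, with 0 at an unadjusted p under 0.05. The largest estimates were those of Atf3, whose fasting change was 1.32 ± 0.77 lower on the log2 scale in PC than in PP (-3.02 to 0.37), and of Trib3, at 1.09 ± 0.62 higher in PC (-0.27 to 2.44). Without fasted PC replicate 1 the Trib3 estimate was 0.51 (edgeR adjusted p = 0.851). For Sesn2 the difference was -0.17 ± 0.24 (-0.69 to 0.34) and for Atf4 -0.12 ± 0.18 (-0.52 to 0.28). The edgeR adjusted p with all libraries was 0.997 for each of these genes. The interval reached past a 2-fold difference for every member except Atf4 and Sesn2.

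Within groups the members did not vary as one block. After the group means were removed from log2(CPM + 0.5), Trib3 and Chac1 varied together over the 12 libraries (Pearson r = 0.89, against 0.93 with the group means left in). Psat1 and Phgdh also varied together (r = 0.82 and 0.85). Psat1 ran against Trib3 (r = -0.76) and against Chac1 (r = -0.75). Sesn2 rose on fasting like Trib3 and Chac1, but within groups its r was -0.22 with Trib3 and -0.23 with Chac1. For Atf4 the within-group r was 0.42 with Trib3, 0.02 with Sesn2 and -0.19 with Asns. These are descriptions of libraries that share groups and depth, and the opposed pattern is widest in fasted PC, where replicate 1 was highest in Trib3 and lowest in Psat1 and replicate 3 the reverse.

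**Figure D3:**
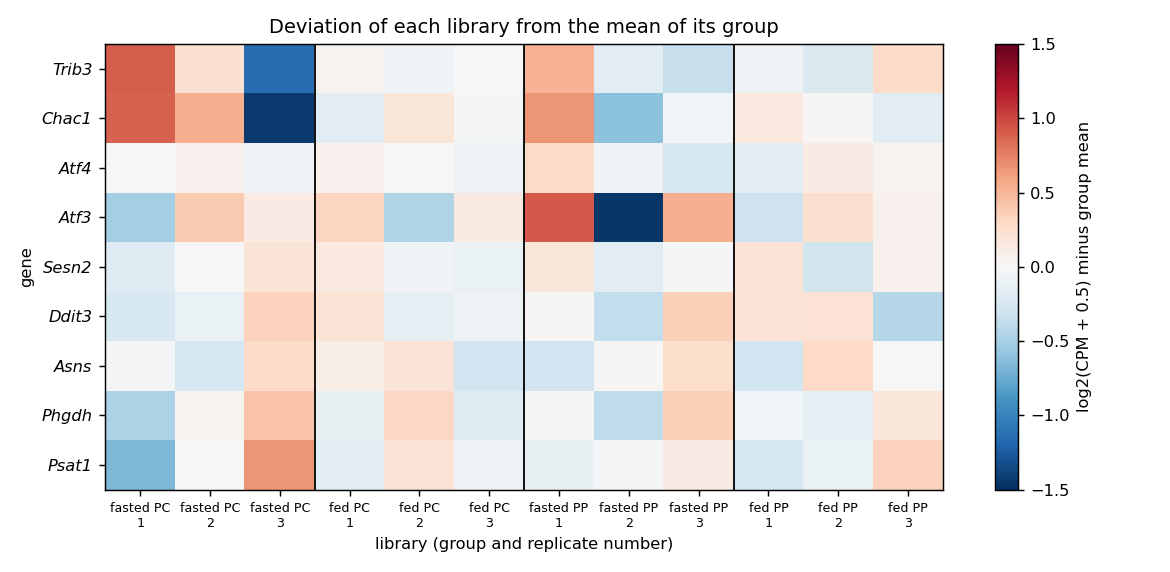
Log2(CPM + 0.5) of each gene (rows) in each library (columns) minus the mean of its group, as colour from blue (below the mean) to red (above). In fasted PC, replicate 1 is above the mean in Trib3 and Chac1 and below it in Psat1 and Phgdh, and replicate 3 shows the opposite; replicate 2 of fasted PP is lowest in Atf3.

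Among non-member genes averaging 5 CPM or more, those most like Sesn2 over the 12 libraries were Zfp36l2 and Slc38a2 (Pearson r = 0.97 each). Slc38a2, a sodium-coupled neutral amino acid transporter and known ATF4 target, is itself in one of the lists described next. Those most like Trib3 were Fam193a (0.96) and Lzts3 (0.95), and those most like Chac1 were Cdc14b (0.97) and Cblc (0.96). Pkm, the pyruvate kinase of muscle and of dividing cells, was among the most alike for both Psat1 (0.92) and Phgdh (0.90). Atf4 was most like Pdf (0.94) and Kdm6a (0.91), Ddit3 like Wdr1 and Khdc4 (0.81 each), Asns like Irak4 (0.86) and Carmil1 (0.85), and Atf3 like Rhou (0.87) and Ccnf (0.84). These values include the differences between groups.

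Other genes of the pathway moved in both directions on fasting, and are given as averages over the zones, to be read against 17.8% of all tested genes called higher, 17.5% lower and a median of 0.00. Of 11 genes for the eIF2α kinases, their partners and the phosphatase subunits, 3 were called higher and 5 lower, with a median log2 fold change of -0.18. Ppp1r15a encodes GADD34, the inducible subunit that returns eIF2α to its unphosphorylated state. It had 8.09, 18.8 and 13.2 CPM in fasted PC libraries, against 5.54, 4.59 and 5.00 CPM in fed PC libraries, and 17.1, 11.6 and 24.1 CPM in fasted PP libraries, against 6.99, 9.67 and 6.66 CPM in fed PP libraries. Its groups did not overlap in either zone and it rose by 1.29 ± 0.22 (edgeR adjusted p = 0.000822). Impact, an inhibitor of the amino acid sensing kinase GCN2, rose by 0.82 ± 0.18 (edgeR adjusted p = 0.00327). Eif2ak3, the ER kinase PERK, fell by 0.55 (SE 0.14; edgeR adjusted p = 0.00685), and Eif2s1, the eIF2α subunit itself, fell by 0.51 (SE 0.06; edgeR adjusted p = 3.1e-05). Eif2ak4, which encodes GCN2, was at -0.18 (adjusted p = 0.26). Of the 5 subunits of eIF2B, the exchange factor that phosphorylated eIF2 inhibits, 0 were higher and 2 lower (Eif2b4 by -0.64 and Eif2b3 by -0.48; median -0.17).

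Of the ATF4 partners and related genes, most of them bZIP factors, 7 of 9 were tested, 2 were higher and 4 lower (median -0.38). Cebpb, which encodes a dimer partner of ATF4, averaged 147 ± 32.6 CPM in fasted PC and 78.6 ± 12.5 CPM in fed PC libraries, and 164 ± 22.8 CPM in fasted PP and 67.9 ± 6.59 CPM in fed PP libraries (SD, n = 3 each). It rose by 1.09 ± 0.12 (edgeR adjusted p = 3.7e-05) and Cebpd, a related factor, by 2.59 ± 0.28 (adjusted p = 2.6e-05). Nupr1 fell most, by 0.67 (edgeR adjusted p = 0.0385), and Nfe2l2, the oxidative stress factor NRF2, by 0.58 (adjusted p = 0.0163). The count of lower genes was 2 without fed PC replicate 1, and that of higher genes 3 without fasted PC replicate 1 or fed PP replicate 1.

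The transporters and biosynthetic enzymes were mixed as well. Of 8 amino acid transporters known as ATF4 targets, 7 were tested, 1 was higher and 2 were lower (median 0.01). The second lower one, the glutamine carrier Slc1a5 (-1.05, edgeR adjusted p = 0.0473), kept its call only without fasted PC replicate 2 or fed PC replicate 1. Slc7a11, the cystine transporter, was below the filter on low counts and was not tested. Slc38a2 had 142, 252 and 226 CPM in fasted PC libraries, against 80.6, 74.7 and 65.3 CPM in fed PC libraries, and 302, 229 and 326 CPM in fasted PP libraries, against 106, 102 and 88.8 CPM in fed PP libraries. Its groups did not overlap, and it rose by 1.51 ± 0.14 (edgeR adjusted p = 9.7e-06). Slc1a4, a carrier of alanine, serine and cysteine, fell by 1.53 (SE 0.30; edgeR adjusted p = 0.00212). Of 11 enzymes of amino acid and one-carbon synthesis, 2 were higher and 1 lower (median 0.05). The lower one, Aldh18a1 of proline synthesis (-0.65, edgeR adjusted p = 0.0347), kept its call only when the library left out was fasted PC replicate 1, fasted PP replicate 2 or fed PP replicate 1. Got1, the cytosolic aspartate aminotransferase, rose by 1.81 ± 0.12 (edgeR adjusted p = 8.5e-07), and Slc25a32, the mitochondrial folate carrier, by 0.87 (adjusted p = 4.9e-05). Mthfd2 was at -0.39 (adjusted p = 0.31) and Psph, the last enzyme of serine synthesis, at -0.15 (adjusted p = 0.29).

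The cytosolic aminoacyl-tRNA synthetases, many of them ATF4 targets, went the other way from Trib3, Chac1 and Sesn2. The list held 20 synthetase genes, all tested, and the tRNA exporter Xpot, which was below the filter on low counts. Of the 20, 0 were higher and 11 lower on fasting, with a median of -0.38, and leaving out 1 library at a time gave 11 to 12 lower. Wars, which charges tryptophan, had 9.89, 7.46 and 7.82 CPM in fasted PC libraries, against 22.3, 17.8 and 18.5 CPM in fed PC libraries, and 11.4, 8.70 and 8.85 CPM in fasted PP libraries, against 30.7, 18.6 and 20.7 CPM in fed PP libraries. All fasted libraries lay below all fed ones, and Wars fell by 1.25 (SE 0.14; edgeR adjusted p = 3.7e-05). Tars, which charges threonine, fell by 0.91 (SE 0.10; edgeR adjusted p = 2.6e-05).

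The ER chaperones and other targets of ATF6 and XBP1, the remaining arms of the ER stress response, fell almost throughout: of 19 genes, 1 was higher and 17 lower, with a median of -0.97, and the 17 stayed 17 whichever library was left out. Hspa5, the main ER chaperone BiP, averaged 477 ± 11.4 CPM in fasted PC and 1522 ± 337 CPM in fed PC libraries, and 554 ± 75.8 CPM in fasted PP and 2085 ± 925 CPM in fed PP libraries (SD, n = 3 each). It fell by 1.79 (SE 0.19; edgeR adjusted p = 3.8e-05), Creld2 by 2.41 (SE 0.27; adjusted p = 8.8e-05), Sdf2l1 by 2.35 (adjusted p = 0.00169) and Xbp1 by 0.71 (adjusted p = 0.00136). The exception was Herpud1, an ER-associated degradation gene, which rose by 1.18 ± 0.14 (edgeR adjusted p = 6.3e-05).

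Of 10 secreted and growth-control targets of ATF4, 9 were tested, 1 was higher and 1 lower (median -0.01). Eif4ebp1, a repressor of cap-dependent translation, rose by 0.54 (edgeR adjusted p = 0.00369) and the autophagy receptor Sqstm1 fell by 0.31 (adjusted p = 0.0133). The hormone Fgf21 had 0.258, 2.23 and 4.82 CPM in fasted PC libraries, against 1.35, 6.71 and 5.44 CPM in fed PC libraries, and 1.00, 4.00 and 3.19 CPM in fasted PP libraries, against 3.75, 7.65 and 8.11 CPM in fed PP libraries. Its groups overlapped in both zones, and the change was -1.06 ± 0.59 (-2.37 to 0.25; edgeR adjusted p = 0.19). The stress hormone Gdf15 was at -0.26 ± 0.56 (adjusted p = 0.75) and was called lower without fasted PP replicate 3, its highest library (adjusted p = 0.0173).

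Neighbouring stress programmes were counted for reference. Of 15 immediate early and heat shock genes, 14 were tested, 2 were higher and 2 lower (median -0.01). Leaving out 1 library at a time gave 1 to 3 higher and 2 to 3 lower, as Jund (0.46, edgeR adjusted p = 0.0313) lost its call in most of these fits. Klf6 rose by 1.35 (edgeR adjusted p = 0.000149) and Hspa8, the constitutive cytosolic chaperone, fell by 1.16 (adjusted p = 3.9e-06). Fos (-1.05, adjusted p = 0.27), Egr1 (0.39, 0.67) and Jun (0.58, 0.13) were not called, and Jun was called higher without fasted PP replicate 2. Of 10 p53 targets, which Sesn2 also is, 9 were tested, 2 were higher and 1 lower (median 0.10; 2 to 3 and 1 to 2 leaving out 1 library). Cdkn1a, the cell cycle inhibitor p21, rose by 3.79 ± 0.51 (edgeR adjusted p = 0.000292) and Trp53inp1 by 1.71 (adjusted p = 0.000247), while Gadd45a fell by 2.95 (SE 0.27; adjusted p = 1.6e-05).

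Between the zones, averaged over the feeding states, called genes of the lists lay on both sides. The counts are to be read against 6.47% of all tested genes called higher in PC and 6.50% lower. Slc1a4 (2.57 ± 0.30, edgeR adjusted p = 0.00016) and Slc1a5 (2.48 ± 0.38, adjusted p = 0.00095) were higher in PC than in PP, as was the stress-responsive Ndrg1 (1.40 ± 0.21, adjusted p = 0.000756). Mthfd1l, a mitochondrial formate-producing enzyme (-2.37 ± 0.21, edgeR adjusted p = 1.99e-05), and Got1 (-0.83 ± 0.11, adjusted p = 0.00039) were lower in PC. Of the 7 tested amino acid transporters 2 were higher in PC and 1 was lower. Among the 11 enzymes of amino acid and one-carbon synthesis 0 were higher and 3 lower. The 9 tested secreted and growth-control targets gave 2 higher and 0 lower. Of the 20 tRNA synthetases 1 was higher in PC (Aars, 0.79) and 2 were lower. Of the 19 ER chaperones 0 were higher and 3 lower, and of the 11 kinase and phosphatase genes 0 were called.

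**Figure D4:**
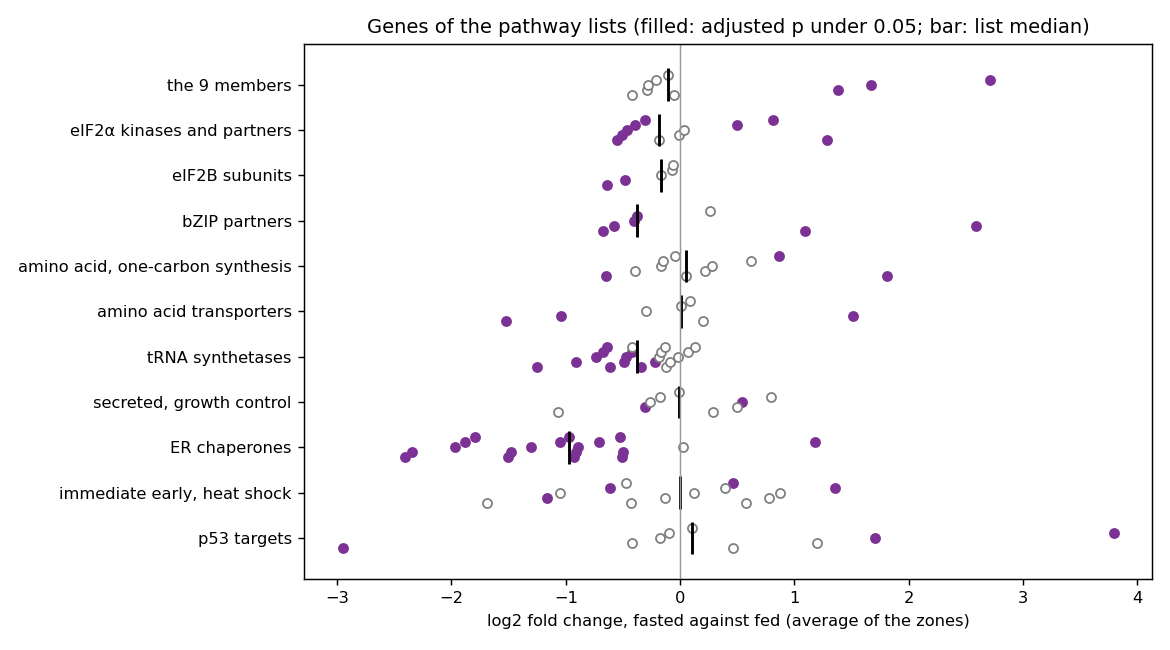
Log2 fold change on fasting, averaged over the zones (horizontal axis), of every tested gene of each list (rows); filled points have an edgeR adjusted p under 0.05 and bars are list medians. The 9 genes split into 3 filled points at 1.38 to 2.71 and 6 open points below 0, while ER chaperones and tRNA synthetases lie mostly to the left of 0.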

How the data were processed

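Total RNA of 12 mouse hepatocyte libraries was sequenced from NEBNext Ultra libraries, per the labels' protocols. The authors deposited estimated counts per gene, which kallisto 0.46.0 and the build mm10 produced, per the submitters' processing notes. For the transcript annotation and strand settings, the sources used here give nothing. Between 28.0% and 32.8% of values per library were not whole, and counts were rounded. Symbols and positions came from GENCODE M21 (GRCm38) and promoters from RefSeq. Of 28030 identifiers, 27645 had a symbol.

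Genes were filtered with filterByExpr (12086 left), scaled by TMM and fitted as 4 group means by the robust quasi-likelihood method of edgeR 4.0.16 (R 4.3.3), with 8 residual degrees of freedom. SE is the ratio of the unshrunk log2 fold change to the root of its F statistic. The log2 fold changes printed, on which the intervals are centred, are edgeR's own, which are shrunk towards 0. p-values were Benjamini-Hochberg adjusted over all tested genes, with a threshold of 0.05. CPM uses TMM-scaled library sizes, and RPKM divides it by merged exon length. Total counts of 16245846 to 27449412 per library leave genes near 1 CPM with few counts. The fit was tested on simulated data. Alternatives were RLE factors, DESeq2 1.42.0, limma voom 3.58.1, no filter, a replicate block, fits of only the groups compared, and leaving out each library. Named genes are all members, set anchor genes, and up to 2 called genes per direction in each list. Likeness is Pearson r of log2(CPM + 0.5) over 12 libraries. The members and lists were chosen with earlier results of these data known.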

Additional observations from a re-analysis of the deposited data

How the results depend on the processing

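Over 18 alternatives (17 for averages and the interaction), member results kept direction and side of the threshold in 1054 cases, passed it newly in 16, lost it in 3 and changed sign in 34, none of the last from a called value. Genes called between PC and PP in fed mice numbered 570, but 909 with DESeq2 and 292 to 701 leaving out a library. In fasted mice they numbered 774, 376 with only the groups compared and 386 to 1005 leaving out a library. The interaction gave 0, 11 with DESeq2, 1 without the filter and 0 to 2 leaving out a library. Leaving out a library, fasting calls ran from 1593 to 2618 in PC (2582 with all libraries) and from 1405 to 2414 in PP (2162). Members called lower in PC in fasted mice were 0, 2 with DESeq2, 1 with voom and 0 to 1 leaving out a library. Averaged over feeding states they were 1, 2 with DESeq2 and 1 to 2 leaving out a library. Members lowered by fasting in PC were 0, 1 with only the groups compared and 0 to 1 leaving out a library, and those lowered by fasting averaged over zones were 0, and 0 to 1 leaving out a library. Members raised in PP were 2, 1 with voom and 1 to 3 leaving out a library. In PP the Atf3 change was -0.15 with voom and that of Psat1 -0.00017 without the filter.

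Uncalled log2 values crossed 0 when a library was left out. For PC against PP in fed mice these were Psat1 (-0.25 to 0.10) and Phgdh (-0.27 to 0.036). In fasted mice they were Atf4 (-0.16 to 0.10), Ddit3 (-0.39 to 0.027), Trib3 (-0.14 to 0.83) and Chac1 (-0.85 to 0.11). Averaged over feeding they were Atf4 (-0.030 to 0.10), Ddit3 (-0.023 to 0.19) and Trib3 (-0.39 to 0.089). For fasting in PC they were Asns (-0.41 to 0.017) and Psat1 (-0.71 to 0.076), and in PP Ddit3 (-0.23 to 0.15), Atf3 (-0.23 to 0.72), Psat1 (-0.12 to 0.22) and Phgdh (-0.037 to 0.37). For fasting averaged over zones they were Psat1 (-0.35 to 0.042) and Phgdh (-0.21 to 0.058), and for the interaction Atf4 (-0.26 to 0.00048), Chac1 (-0.016 to 0.94) and Psat1 (-0.72 to 0.068). The cause was not tested.

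Replicate numbers are shared across groups. Of 6 same-numbered PC and PP pairs within a feeding state, 3 had a correlation of deviations above 0.1 (-0.115 to 0.269). Pairs were to be accepted only if every correlation passed 0.1, so the numbers were not taken as pairs. For each library, its deviations were also correlated with those of the other groups and averaged by replicate number. The highest of the 3 averages was that of its own number for 8 of 12 libraries, which is a description only. With the number as a replicate block, calls were 796 and 625 for zone in fasted and fed mice, 2696 and 2223 for fasting in PC and PP, and 4340, 1627 and 0 for the fasting average, zone average and interaction, and no member call changed. Counted over all alternatives together, called results of the other listed genes stayed called in 2939 cases and lost the call in 279. Counts of 12 to 45 for Asns, and 12 to 30 for Chac1 in fed mice, limit precision.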
